A study of Mus musculus with 24 samples.

Results

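The genes described here are those of the cytosolic ribosomal proteins, the protein parts of the ribosome that works outside the mitochondria. They were taken by name: protein-coding rows whose GENCODE M21 symbol is Rpl or Rps with a number, or Rpsa, Rplp0, Rplp1 or Rplp2, leaving out the Rps6k kinases and pseudogenes. The rule found 83 symbols. Of these, 79 reached an FPKM of 1 in at least 4 of 24 libraries (FPKM, a level per length of exon and per depth of the library), out of 11377 genes that passed the same filter. They are 47 genes of the large subunit and 32 of the small subunit. The 4 symbols that did not pass were Rpl3l, Rpl10l, Rpl39l and Rpl24.

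The study measured messenger RNA in macrophages grown for 7 days from mouse bone marrow (BMDM, bone marrow derived macrophages) of the C57BL/6 strain, in medium conditioned by L929 fibroblasts. Cells of Trem2-/- mice (KO) and of wild-type mice (WT) were compared. Trem2 is a surface receptor through which macrophages sense lipids and dying cells. In each genotype the cells received S1P (sphingosine-1-phosphate, a signalling lipid) at 500 nM for 24 hours, or ACM for 24 hours, or were left untreated. ACM is serum-free medium from AML12 mouse hepatocytes in which palmitate at 800 µM had brought on apoptosis. The 6 groups are therefore KO S1P, KO ACM, KO untreated, WT S1P, WT ACM and WT untreated, with 4 libraries in each. The labels give neither the knockout allele nor a vehicle, and none of the samples here had palmitate alone or medium of living AML12 cells, so an agent and the medium it came in cannot be told apart. Each group has its own run of library numbers, so a batch and a group cannot be told apart either. The labels name no separate culture or animal for a library, and p-values therefore speak only of the spread among these libraries, which may be technical.

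The libraries held 16.6 to 25.2 M reads (M, 1e6) as the size of the FPKM steps shows, and the 79 genes took 2.61 to 3.14% of the reads of a library. Trem2 stood at 38.5 to 40.7 FPKM in KO S1P and 36.8 to 40.5 in KO ACM libraries, against 97.7 to 109 in WT S1P and 87.4 to 93.4 in WT ACM libraries. In KO untreated libraries it was 35.7, 38.9 and 40.2 FPKM, except for 79.6 in the library labelled KO untreated 81, inside the range of 74.5 to 82.7 of WT untreated cells. The main counts of called genes in the set that rest on KO untreated cells are therefore also given without that library. Most other values from KO untreated cells include it, among them ranges, Gm23935 means, marker sums, other gene lists and alternative fits. The macrophage genes Adgre1, Csf1r, Cd68 and Lyz2 were detected in every group. All 7 fibroblast genes examined and all 4 lymphoid genes stayed under 1 FPKM in every library, and the summed level of 8 hepatocyte genes was 0.551 to 1.44 FPKM.

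A cytosolic ribosome joins a large subunit, which forms peptide bonds, to a small subunit, which reads the message. Nearly all of these proteins are needed in equal amounts, and their genes are among the most highly transcribed of any cell. Their messages usually begin at a cytosine inside a run of pyrimidines, the 5′ terminal oligopyrimidine tract (TOP), through which mTORC1 and the La-related protein Larp1 adjust how strongly they are translated. Translation itself is not measured here. In bulk RNA, fewer cells of a type and less RNA per cell cannot be told apart.

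Many but not all starts of these genes have such a tract nearby, and a selection is printed because the name rule did not use sequence. The 30 bases run from 20 before to 10 after the RefSeq start, in GRCm38.p6, read 5′ to 3′ on the strand of the gene. Capitals mark only the longest run of C or T in each sequence, where it has 6 or more bases. The first 5 were chosen, after their sequences were seen, to show a tract at the start.
Rpl35, chr2:39005122-39005151, minus strand: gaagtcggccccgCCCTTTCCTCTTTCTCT
Rps6, chr4:86857358-86857387, minus strand: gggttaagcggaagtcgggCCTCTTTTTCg
Rpl28, chr7:4792945-4792974, plus strand: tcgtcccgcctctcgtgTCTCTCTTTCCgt
Rps18, chr17:33955656-33955685, minus strand: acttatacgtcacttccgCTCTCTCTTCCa
Rpl38, chr11:114668560-114668589, plus strand: ccggaagcggaagcctcgTTCTTTCCCCgt
The next 8 belong to genes among those that moved most in WT cells and to Rplp0, the base of the stalk. In 5 of these 8 the 30 bases hold no run of 6 or more C or T. Of those 5, Rpl37a, Rpl36a and Rps7 have a tract in the wider window counted below, and Rps4x and Rplp0 do not.
Rpl37a, chr1:72711240-72711269, plus strand: gtcacttccgctcgccggtctaaaaccgcg
Rpl36a, chrX:134585634-134585663, plus strand: aggaagtgcacccaggcaccgcctataaac
Rps4x, chrX:102189382-102189411, minus strand: aaagtctgaggctgggcggagcaacccagg
Rps7, chr12:28635944-28635973, minus strand: gaagagcttccggtttccacccacctactt
Rpl22l1, chr3:28805488-28805517, plus strand: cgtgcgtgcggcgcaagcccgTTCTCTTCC
Rpl13a, chr7:45128736-45128765, minus strand: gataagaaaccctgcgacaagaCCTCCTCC
Rpl31, chr1:39367831-39367860, plus strand: caCCTCTTCCTCCTCgcctccccgtgaccc
Rplp0, chr5:115559447-115559476, plus strand: acgtcgtcttcgggtttcgaggaccgcctg

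A tract, counted as a C followed by at least 7 C or T anywhere from 30 bases before to 50 after a RefSeq start, was found in 47 of 59 genes of the set with a start entry (79.7%). It was found in 2111 of the 8137 protein-coding genes that passed the filter and have a start entry (25.9%), the 59 included. The ETS family motif CCGGAAG, searched on both strands from 250 bases before to 50 after the start, was held by 25 of 59 (42.4%), against 22.6% of the 8137. AAGATGGC, a YY1 motif, was held by 6 of 59 (10.2%), against 5.94%. The E-box CACGTG, searched in the same way, was held by 10.2%, against 12.4%. TATAAA, searched only on the strand of the gene from 40 to 10 bases before the start, was held by 1.69%, against 1.28%. Both the tract and the ETS motif were thus commoner at these starts than at the starts of the 8137 genes, and the E-box was not. The other 20 genes of the set have no start entry.

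Mean levels over all 24 libraries spanned 1.11 FPKM for Rps10 to 1430 FPKM for Rplp1, with a median of 199.8. FPKM is a level per length of exon, and the order of these genes depends on the annotated length: Rps15a had a median of 5892 reads over 6270 exon bases, and Rps15 had 6338 reads over 630 exon bases. The median was 176 FPKM over the large subunit and 220 FPKM over the small subunit. The 5 highest were Rplp1, Rplp0 (582 FPKM), Rpl17 (580.0 FPKM, a protein at the exit of the peptide tunnel), Rps3a1 (534 FPKM) and Rps15 (516 FPKM). The 5 lowest were Rps10 (1.11 FPKM, 27 to 73 reads), Rpl13a (7.75 FPKM), Rpl22l1 (18.6 FPKM), Rpl7l1 (31.4 FPKM) and Rps15a (47.0 FPKM). The genes lie on 19 chromosomes, with the most, 14, on chromosome 7. Rps10 and Rpl13a encode standard proteins of the subunits, and Rps10 was called in none of the 11 comparisons. Both rows overlap another annotation: 92.1% of the coding bases of Rps10 and 97.5% of those of Rpl13a are shared on the same strand with RPS10-NUDT3 and with Gm45713, both listed at 0. The same held for 83.4% of Rpl24, which averaged 0.719 FPKM and failed the filter. No other gene of the set had over 50% of its coding bases overlapped on the same strand, and how the counting treated shared reads was not tested.

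Processed copies are the other limit on these levels. Of the 79 genes, 76 had at least 1 annotated pseudogene matching 70% or more of the coding sequence at 90% identity or more. The median was 9 per gene and the most 74. Summed over the family, the 954 pseudogenes held 2.76 to 6.44% of the FPKM that the pseudogenes and the 79 genes had together in a library. How reads that fit both a gene and its copy were assigned was not tested.

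The summed level of the 79 genes was 18570 to 20070 FPKM in KO S1P libraries, 18280 to 19910 in KO ACM and 17880 to 19020 in KO untreated libraries. It was 17400 to 17960 FPKM in WT S1P, 16990 to 18110 in WT ACM and 18360 to 19820 in WT untreated libraries. Every WT library with S1P or ACM lay below every WT untreated library, whereas the KO groups overlapped one another. As a share of the summed FPKM of nuclear protein-coding genes, the set held 6.77% ± 0.131 in KO S1P, 6.69% ± 0.192 in KO ACM, 6.50% ± 0.269 in KO untreated, 6.23% ± 0.103 in WT S1P, 6.03% ± 0.166 in WT ACM and 6.61% ± 0.167 in WT untreated cells (SD, n = 4 each). Without the library labelled KO untreated 81, the KO untreated share was 6.63% ± 0.119 (SD, n = 3).

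**Figure D1:**
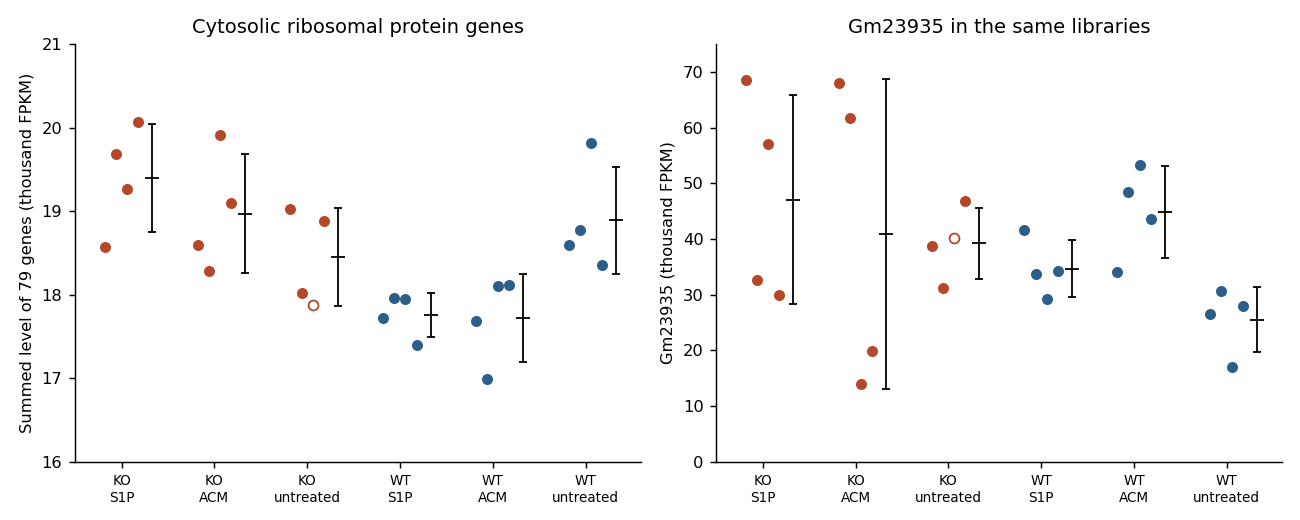
Left, the summed FPKM of the 79 genes in each library (FPKM / 1000), on an axis that does not start at 0; right, the FPKM of Gm23935, a short row read from ribosomal RNA, in the same libraries. Points are libraries, the open point is the library labelled KO untreated 81, and bars give the mean and SD of 4 libraries. WT libraries with S1P or ACM lie at 16990 to 18110 FPKM, below the WT untreated libraries.

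The spread of single genes within groups was small. Their pooled SD was 0.03 to 0.28 on the log2 scale, with a median of 0.07, lowest for Rpl4 and highest for Rps29 and Rps28, which are among the shortest. Libraries also differed in Gm23935, the short row read from ribosomal RNA, which took 4.38 to 18.6% of the summed FPKM. It was 13920 and 19910 FPKM in KO ACM 87 and 88, where the summed level of the set was 19910 and 19100 FPKM, and 67940 and 61760 FPKM in KO ACM 85 and 86, where that sum was 18590 and 18280 FPKM. Other groups went either way. In KO S1P 94 and 91 Gm23935 was at 29960 and 68500 FPKM, with sums of 20070 and 18570 FPKM. In WT ACM 19 and 21 it was at 33990 and 53320 FPKM, with sums of 17680 and 18100 FPKM. Gm23935 averaged 47040 FPKM in KO S1P, 40880 in KO ACM, 39200 in KO untreated, 34680 in WT S1P and 44830 in WT ACM cells, against 25530 in WT untreated cells. The results below are therefore also given from a fit that holds its level as a covariate, which was chosen after seeing the data.

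Many of these genes were lower, by a small amount, in WT cells with S1P. In the comparison of WT S1P with WT untreated cells, 36 of 79 fell and 2 rose (limma on log2(FPKM + 1), adjusted p under 0.05 over all 11377 genes), while 27.2% of all genes tested were called lower and 25.2% higher (52.4% in all). The share called lower in the set was 45.6%, and it was spread over both subunits, with 21 of 47 genes of the large subunit and 15 of 32 of the small subunit. Differences ran between -0.45 and 0.17 with a median of -0.12, against a median of 0.0038 over all genes tested, and 68 of 79 were below 0. With the Gm23935 covariate 32 were called lower and 2 higher.

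The largest fall with S1P was that of Rpl37a (chr1:72711290-72713813, plus strand, GRCm38), a short zinc-binding protein of the large subunit. It stood at 168, 169, 149 and 148 FPKM in WT S1P libraries, against 209, 212, 237 and 213 in WT untreated libraries. The groups did not overlap, and the difference was -0.45 ± 0.05 (SE, adjusted p = 2.68e-07). In KO cells the same gene was at 215, 236, 224 and 239 FPKM with S1P, against 230, 215, 200.1 and 221 untreated, groups that overlap in part (0.08 ± 0.05, adjusted p = 0.648; 0.04 and 0.905 without the library labelled KO untreated 81).

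Rpl36a, at the site where spent tRNA leaves the large subunit, was at 83.3, 83.7, 77.9 and 80.2 FPKM in WT S1P libraries, against 98.9, 107, 107 and 92.6 in WT untreated libraries. It fell by 0.31 ± 0.04 on the log2 scale (adjusted p = 2.86e-06). Every WT S1P library was below every untreated one. Rpl3 (chr15:80077791-80091868, minus strand), which lies beside the centre where peptide bonds form, was at 183, 188, 183 and 181 FPKM, against 222, 214, 236 and 225 in WT untreated libraries, and it fell by 0.29 ± 0.04 (adjusted p = 2.26e-06). Rps4x, the X-linked gene of a small subunit protein, was at 326, 307, 295 and 285 FPKM, against 338, 362, 381 and 372, and it fell by 0.26 ± 0.04 (adjusted p = 1.13e-05). None of these 3 genes, which were named among the largest called falls, had overlapping groups in this comparison. The share of all genes with such separated groups is not given here.

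Rpl22l1 and Rpl23a completed the 6 largest falls. Rpl22l1 fell by 0.31 ± 0.08 (adjusted p = 0.00171), with no overlap between groups. Rpl23a, a protein at the exit of the peptide tunnel, fell by 0.29 ± 0.09 (adjusted p = 0.0131). Its value rests on 1 library: it was 167.5 to 201 FPKM in WT S1P, against 187, 204, 220 and 289 FPKM in WT untreated libraries, and without WT untreated replicate 2 the difference was -0.16 (adjusted p = 0.0701).

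The other genes of the large subunit called lower with S1P in WT cells included Rpl5, Rpl6, Rpl7, Rpl7a, Rpl8, Rpl10a, Rpl11, Rpl12, Rpl13, Rpl14, Rpl15, Rpl21, Rpl28, Rpl29 and Rpl36. Those of the small subunit included Rps2, Rps3a1, Rps7, Rps9, Rps13, Rps14, Rps16, Rps18, Rps20, Rps25, Rps26 and Rpsa. The smallest called falls were -0.12 in both subunits.

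Rpl5 and Rpl11 sit with 5S RNA in the large subunit, and outside the ribosome the same complex is known to bind Mdm2. Rpl5 was at 100.2, 102, 100.1 and 96.6 FPKM in WT S1P, against 108, 106, 113 and 112 in WT untreated libraries (-0.13 ± 0.04, adjusted p = 0.00516), with no overlap. Rpl11 was at 124, 133, 123 and 116 FPKM, against 145, 125, 149 and 132, groups that overlap (-0.15 ± 0.06, adjusted p = 0.0264). In KO cells Rpl5 was at 110.2, 113, 115 and 121 FPKM with S1P, against 111, 106, 97.1 and 112 untreated (0.11 ± 0.04, adjusted p = 0.324, and 0.07 with adjusted p = 0.560 if library 81 is left out).

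Rpsa, at the message exit of the small subunit and also known as a laminin receptor, was at 245, 236, 229.6 and 229 FPKM in WT S1P, against 267, 266, 270.3 and 264 in WT untreated libraries. Every WT S1P library was lower, and the difference was -0.18 ± 0.03 (adjusted p = 3.68e-05). Rps6, the small subunit protein that S6 kinases phosphorylate, was at 267, 249.9, 241 and 231 FPKM, against 264, 256, 283 and 258, groups that overlap and a difference that did not pass (-0.10 ± 0.05, adjusted p = 0.0650). Rpl4, which lines the peptide tunnel and varied least within groups, was at 369, 359, 375 and 378 FPKM, against 361, 380.2, 376 and 370.1 (-0.01 ± 0.03, adjusted p = 0.847).

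The 2 genes that rose with S1P in WT cells were Rpl31 and Rps27a, whose product is made as a fusion with ubiquitin. Rpl31 was at 224, 263, 256 and 236 FPKM in WT S1P, against 229, 206, 230 and 204 in WT untreated libraries, a difference of 0.17 ± 0.06 (adjusted p = 0.0307). Rps27a was at 239, 255, 250 and 251 FPKM, against 231, 232, 242 and 225, a difference of 0.10 ± 0.03 (adjusted p = 0.0190). For both, 1 WT S1P library lay inside the untreated range. Both calls were lost with TPM scaling (adjusted p = 0.280 for Rpl31 and 0.529 for Rps27a). That of Rpl31 was also lost without WT untreated replicate 2 or 4 or WT S1P replicate 26 or 27 (adjusted p = 0.0898 to 0.109), and that of Rps27a without WT untreated replicate 4 or WT S1P replicate 26 (adjusted p = 0.0694 and 0.0591).

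**Figure D2:**
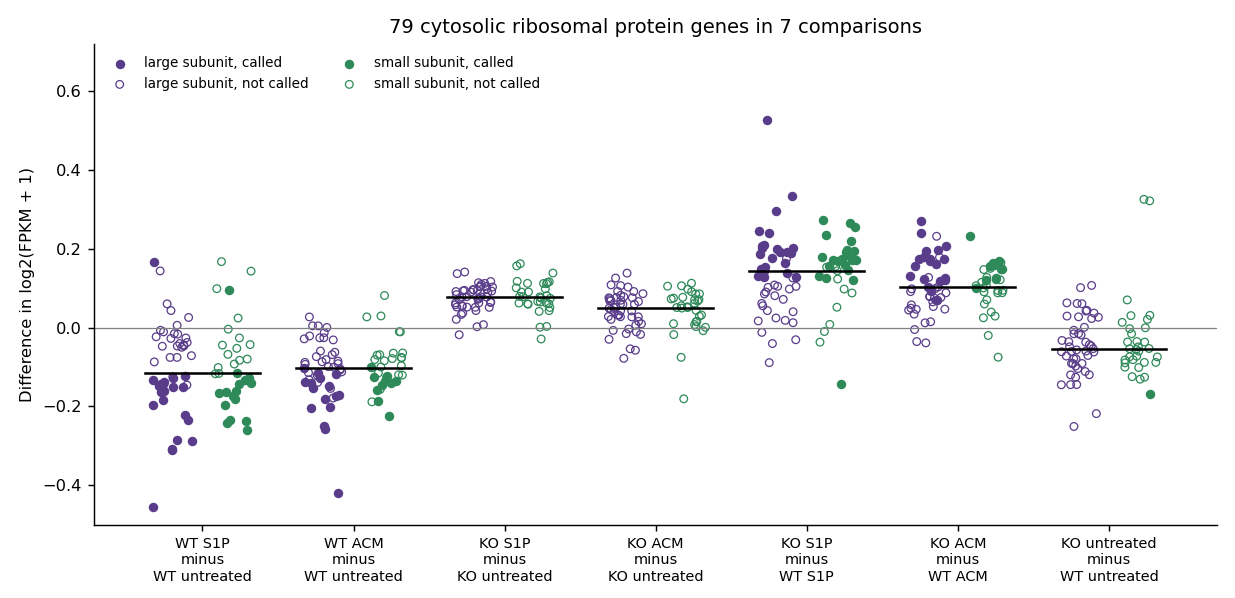
Each point is 1 of the 79 genes, its height the difference in log2(FPKM + 1) in the comparison named below it, with filled points for genes called at an adjusted p under 0.05 over all genes tested and black lines for the median. Purple is the large subunit and green the small subunit. Medians lie at -0.12 and -0.10 for S1P and ACM in WT cells, and at 0.08 and 0.05 for the same treatments in KO cells, where no gene was called.

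Genes of the set were also lower in WT cells with ACM. In WT ACM against WT untreated, of the 79 genes 26 fell and 0 rose, 32.9% of the set called lower against 9.85% of all genes tested. They were 16 of 47 in the large subunit and 10 of 32 in the small subunit, and 40 of 79 had an unadjusted p under 0.05. The share of all genes with an unadjusted p under 0.05 is not given for this comparison. The median difference was -0.10, against -0.0013 over all genes, and 72 of 79 were below 0. With the Gm23935 covariate 17 were called, all lower. Scaling to a common sum (TPM) shifted the median of all genes in this comparison by -0.12, and 53 were then called lower.

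Rpl13a, known in human monocytes for a second role in silencing inflammatory messages, had the largest difference with ACM. It was at 6.72, 5.50, 7.05 and 5.63 FPKM in WT ACM, against 8.83, 8.24, 8.90 and 8.55 FPKM in WT untreated libraries, with no overlap, and it fell by 0.42 ± 0.07 (adjusted p = 0.000204). This low level comes from 211 to 469 reads over a row most of whose coding bases overlap Gm45713. Rps7 (chr12:28630854-28635953, minus strand), a small subunit protein needed early in assembly, was at 189, 191, 189 and 187 FPKM, against 211, 231, 215 and 229. It fell by 0.22 ± 0.03 (adjusted p = 3.09e-05), with no overlap. Rpl36a fell by 0.25 ± 0.04, Rpl10a, the mobile arm at which deacylated tRNA leaves, by 0.21 ± 0.03, and Rpl3 by 0.20 ± 0.04 (adjusted p = 0.000316, 0.000195 and 0.000835). Rpl4, which was not called with S1P, was at 344, 351, 336 and 355 FPKM in WT ACM libraries and fell by 0.10 ± 0.03 (adjusted p = 0.00575). Rpl22l1 fell by 0.26 ± 0.08 (adjusted p = 0.0182), a call that was lost without WT ACM replicate 19 or 22 or WT untreated replicate 2 or 4 (adjusted p = 0.0526 to 0.0735). The others called lower included Rpl5, Rpl7, Rpl7a, Rpl12, Rpl13, Rpl14, Rpl17, Rpl26 and Rpl37a of the large subunit, and Rps3a1, Rps4x, Rps12, Rps13, Rps15a, Rps18, Rps20 and Rps24 of the small subunit. Their differences lay between -0.19 and -0.10.

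The treatments were also compared with each other in WT cells. In WT ACM against WT S1P, 4 genes were called higher and 5 lower, 9 of 79 where 41.5% of all genes tested were called, and the median difference was 0.01. Rps4x, Rps26, Rpsa and Rpl37a were higher with ACM, and Rpl4, Rpl13a, Rpl31, Rps15a and Rps27a were lower. The largest single difference was that of Rpl37a, at 198, 185, 197 and 192 FPKM with ACM and 168, 169, 149 and 148 FPKM with S1P, groups that did not overlap. After quantile normalization 1 was called higher and 18 lower in that comparison, and the median turned to -0.06, so its direction depends on the scaling.

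In KO cells no gene of the set passed with either treatment. In KO S1P against KO untreated, 0 of 79 were called (0.00879% of all genes tested), 30 had an unadjusted p under 0.05, and 77 of 79 differences were above 0, with a median of 0.08 (0.04 with TPM scaling). Without the library labelled KO untreated 81, 0 were called, 17 had an unadjusted p under 0.05, and 73 of 79 were above 0, with a median of 0.07. In KO ACM against KO untreated, 0 of 79 were called (0.00879% of all genes), 17 had an unadjusted p under 0.05, and 66 of 79 were above 0 (median 0.05). Without that library the counts were 10 and 54 (median 0.04). KO ACM against KO S1P gave 0 calls of 79 (0.0352% of all genes), with 1 at an unadjusted p under 0.05. The same fit called 1 gene of 11377 in each KO treatment comparison, where 1167 with S1P and 1043 with ACM had an unadjusted p under 0.05. That count of all genes is not given for KO ACM against KO S1P or for the fits without library 81.

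Under S1P many of these genes stood higher in KO than in WT cells. In KO S1P against WT S1P, 45 of 79 were higher in KO and 1 was lower, while 26.9% of all genes tested were called higher and 25.4% lower (52.4% in all). The share called higher in the set was 57.0%. By subunit it was 24 of 47 in the large and 21 of 32 in the small subunit. The median difference was 0.14, against 0.0003 over all genes, and 72 of 79 were above 0. With TPM scaling 8 were called higher and 1 lower, and the median was 0.09. With the Gm23935 covariate 54 were higher and 1 lower.

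Rpl37a again differed most, at 215, 236, 224 and 239 FPKM in KO S1P, against 168, 169, 149 and 148 in WT S1P libraries, a difference of 0.53 ± 0.05 (adjusted p = 3.83e-08). Rpl36a was at 101, 102, 101 and 106 FPKM in KO S1P, against 83.3, 83.7, 77.9 and 80.2 in WT S1P, a difference of 0.33 ± 0.04 (adjusted p = 1.19e-06). Rpl3 followed at 0.30 ± 0.04 (adjusted p = 1.43e-06). Among small subunit genes, Rps16 was at 329, 365, 338 and 363 FPKM, against 291, 295, 290 and 276 in WT S1P libraries, with a difference of 0.27 ± 0.05 (adjusted p = 4.32e-05). Rps4x differed by 0.27 ± 0.04 and Rps20 by 0.26 ± 0.05 (adjusted p = 8.63e-06 and 8.91e-05). None of these 6, which were named for the largest called rises, had overlapping groups. The share of all genes with such separated groups is not given here. Rps27a was the 1 gene called lower in KO, at 219, 224, 229 and 228 FPKM, against 239, 255, 250 and 251 in WT S1P libraries (-0.14 ± 0.03, adjusted p = 0.000972).

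Under ACM, too, genes of the set stood higher in KO than in WT cells. In KO ACM against WT ACM, 30 of 79 were higher in KO and 0 lower, 38% of the set against 12.5% of all genes called higher. They were 20 of 47 in the large subunit and 10 of 32 in the small subunit, with a median of 0.10. With the Gm23935 covariate 21 were higher and 1 lower. The count fell to 16 without KO ACM replicate 87 or without KO ACM replicate 88, the KO ACM libraries with the least Gm23935, to 18 without WT ACM replicate 20 and to 19 without WT ACM replicate 19. Rps7 was at 219, 224, 224 and 223 FPKM in KO ACM, against 189, 191, 189 and 187 in WT ACM libraries (0.23 ± 0.03, adjusted p = 1.16e-05). Rpl13a differed by 0.27 ± 0.07 (adjusted p = 0.00564), with 8, 7.14, 7.85 and 7.74 FPKM in KO ACM and 6.72, 5.50, 7.05 and 5.63 FPKM in WT ACM libraries. Rpl3 (0.24 ± 0.04), Rpl36a (0.21 ± 0.04) and Rpl10a (0.20 ± 0.03) were also higher in KO (adjusted p = 8.07e-05, 0.001 and 0.000147). Rpl37, at 0.19 ± 0.07 (adjusted p = 0.0383), lost its call without WT ACM replicate 19, 20 or 21 or KO ACM replicate 85, 87 or 88 (adjusted p = 0.0506 to 0.12).

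**Figure D3:**
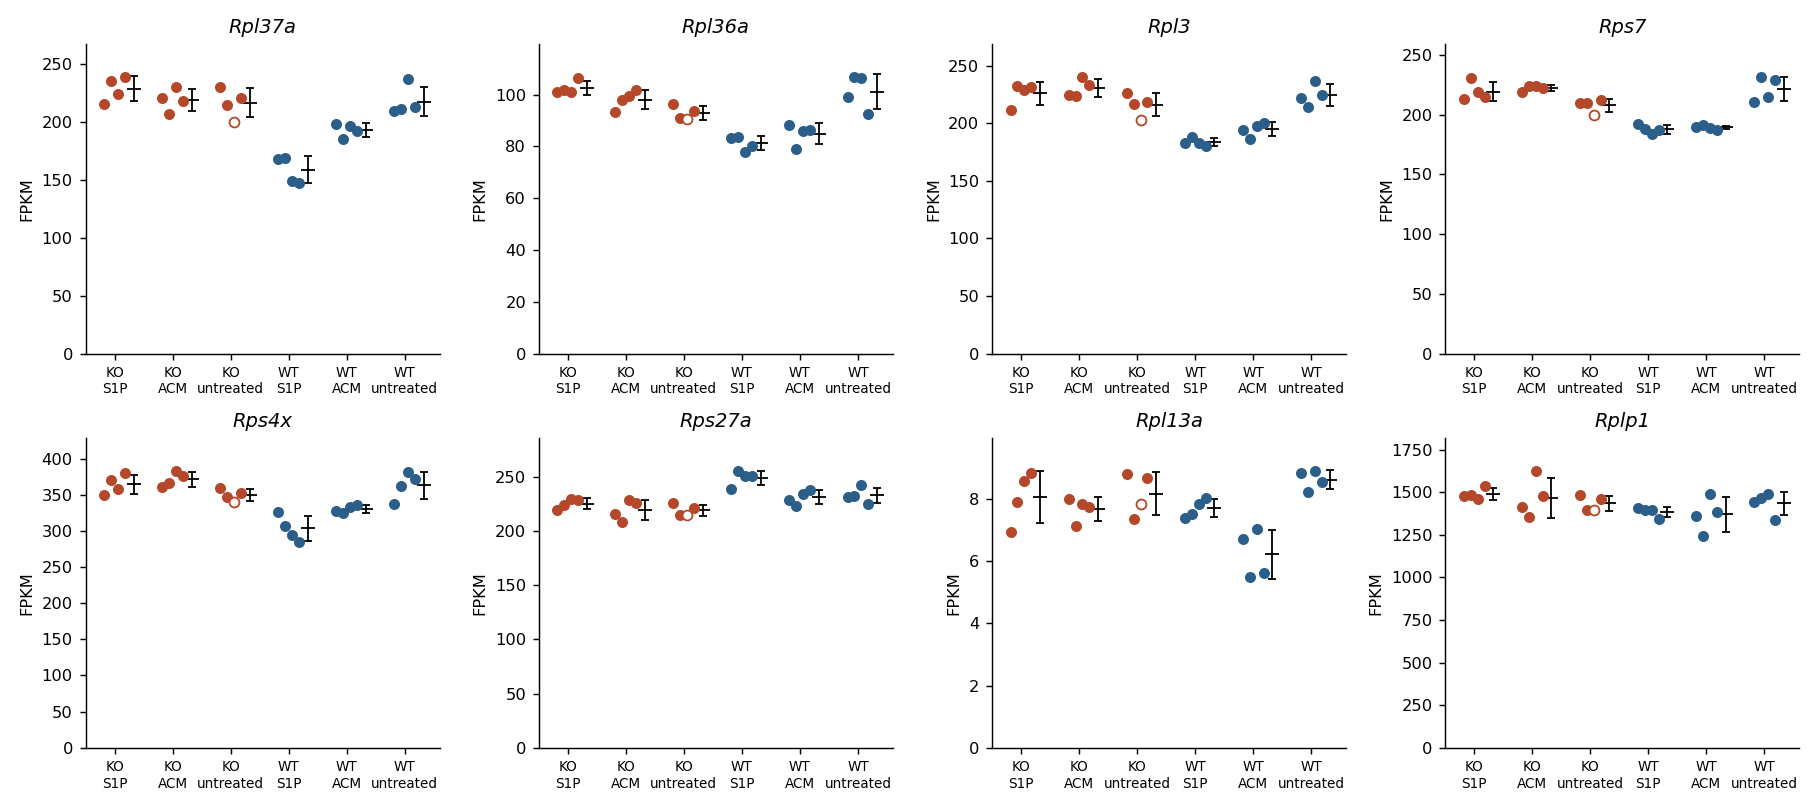
FPKM of 8 genes in each of the 24 libraries, on axes that start at 0, with KO groups in red and WT groups in blue; the open point is the library labelled KO untreated 81, and bars give the mean and SD of 4 libraries. Rpl37a, Rpl36a, Rpl3, Rps7 and Rps4x are lowest in WT S1P and WT ACM, Rpl13a is lowest in WT ACM, Rps27a is highest in WT S1P, and Rplp1 overlaps between most groups.

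Without treatment few of these genes were called between the genotypes. In KO untreated against WT untreated, 1 of 79 was called, Rps26, where 1.21% of all genes tested were called lower and 1.26% higher (2.47% in all). Of the 79 genes, 24 had an unadjusted p under 0.05, and the share of all genes with such a p is not given here. Rps26, which contacts the message at the exit of its channel, was at 204, 191, 210 and 208 FPKM in KO untreated, against 211, 253, 229 and 223 in WT untreated libraries (-0.17 ± 0.04, adjusted p = 0.0469). The groups did not overlap, by a margin of less than 1 FPKM. The call was lost in a fit of the compared groups alone (adjusted p = 0.226), with no filter (adjusted p = 0.0875) and without most single libraries. Without the library labelled KO untreated 81 it was -0.19 (adjusted p = 0.0172). The median difference over the set was -0.05, with 59 of 79 below 0. Without the library labelled KO untreated 81, 5 were called, all lower, and the median was -0.04. The share of all genes called in that fit is not given here. The widest differences were those of Rps28 (0.33 ± 0.15) and Rps29 (0.32 ± 0.18), with adjusted p = 0.270 and 0.390. Rps29 lay at 437 to 514 FPKM in KO untreated libraries, inside the wide range of 252 to 565 FPKM of WT untreated libraries.

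Whether the response to a treatment depended on genotype was tested as an interaction, the KO difference minus the WT difference. For S1P, 45 of 79 genes had a called positive interaction and 0 a negative one, 57.0% against 22.5% of all genes called positive and 19.4% negative, with a median of 0.19 over the set. For ACM, 32 were called positive and 0 negative, 40.5% against 7.41% of all genes called positive and 9.64% negative, with a median of 0.15. Without the library labelled KO untreated 81 the counts were 42 and 28, and with the Gm23935 covariate 43 and 17. With TPM scaling the S1P count was 23. The shares of all genes called in these other fits are not given here. The smallest adjusted p for S1P belonged to Rpl36a (0.45 ± 0.06, adjusted p = 4.74e-06), Rpl37a (0.53 ± 0.08, adjusted p = 7.75e-06), Rps7 (0.31 ± 0.04, adjusted p = 8.23e-06), Rpl7a (0.24 ± 0.04, adjusted p = 2.57e-05) and Rpl3 (0.35 ± 0.06, adjusted p = 2.83e-05). For ACM they belonged to Rps7 (0.32 ± 0.04, adjusted p = 5.55e-05), Rpl10a (0.31 ± 0.05, adjusted p = 0.000203), Rpl3 (0.29 ± 0.06, adjusted p = 0.00101), Rpl36a (0.33 ± 0.06, adjusted p = 0.00101) and Rps3a1 (0.23 ± 0.04, adjusted p = 0.00135). Leaving out library 81 put the S1P interaction at 0.44 for Rpl36a and 0.50 for Rpl37a, and the ACM interaction at 0.30 for Rps7. Rpl36a, Rps7 and Rpl3 stand in both lists, but the S1P and ACM interactions share their untreated libraries.

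**Figure D4:**
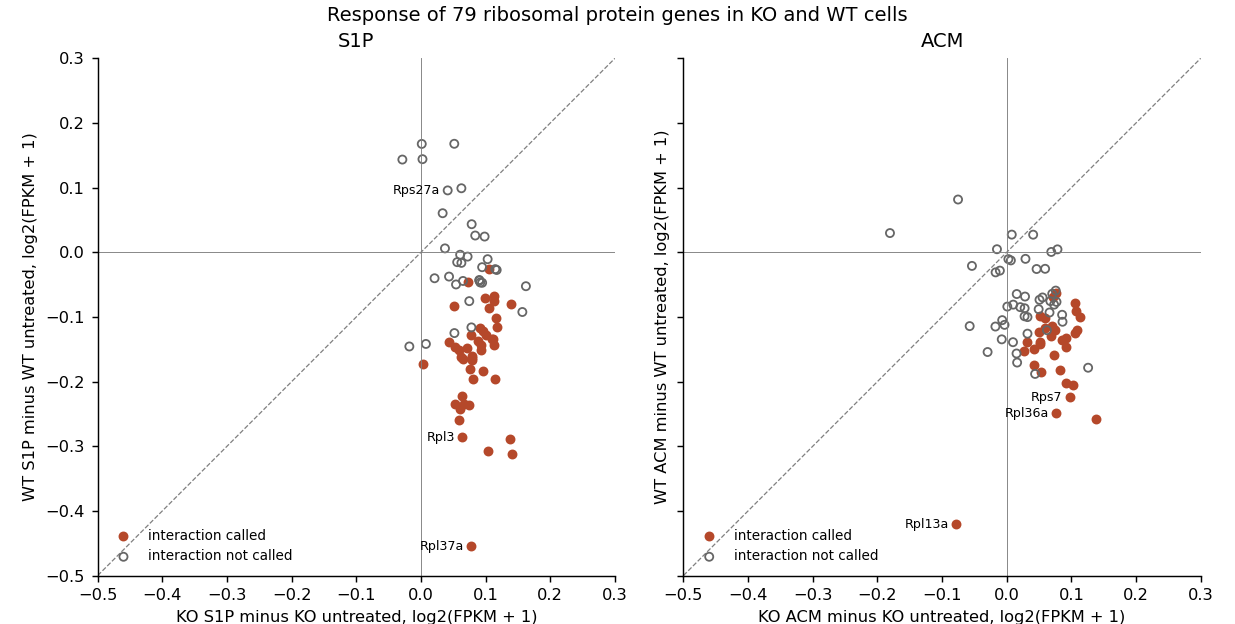
For each of the 79 genes, the difference in log2(FPKM + 1) with S1P (left) or ACM (right) in KO cells on the horizontal axis and in WT cells on the vertical axis; the dashed line marks equal differences, and red points had a called interaction. Most points lie to the right of 0 and below 0, and all red points lie below the dashed line, 45 with S1P and 32 with ACM.

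The stalk of the large subunit recruits the elongation factors and is built from Rplp0, Rplp1 and Rplp2. None of the 3 was called in any of the 11 comparisons. Rplp1 was at 1478, 1485, 1458 and 1535 FPKM in KO S1P, against 1405, 1396, 1395 and 1342 in WT S1P libraries (0.10 ± 0.05, adjusted p = 0.0956). Rplp0 was at 587, 606, 584 and 603 FPKM, against 582, 574, 579 and 574 (0.04 ± 0.03, adjusted p = 0.208). Both pairs of groups were separated, though neither difference passed, and the share of all genes with such separated groups is not given here. Rplp2 was at 125, 133, 129 and 147 FPKM in KO S1P and 119, 125, 128 and 124 FPKM in WT S1P libraries, groups that overlap.

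Of the paralogues, which are genes that arose as copies of a standard ribosomal protein gene, only Rps27l, Rpl22l1 and Rpl7l1 are in the set. Rps27l, known as a target of p53, was at 106 to 131 FPKM beside Rps27 at 139 to 180 FPKM. Rpl22l1 was at 14.5 to 23.8 FPKM beside Rpl22 at 47.7 to 62.0 FPKM, and Rpl7l1, which is active in large subunit assembly, was at 29.4 to 33.1 FPKM beside Rpl7 at 162 to 190 FPKM. Rpl10l was listed at 0 in every library, and Rpl3l and Rpl39l did not exceed 0.169 and 0.486 FPKM. Rpl36al spanned 0.285 to 2.24 FPKM, with 95.3% of its coding bases under Gm49383. Rps4l, annotated as a pseudogene, was at 2.25 to 4.43 FPKM.

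The log2 ratio of paralogue to partner was compared in 4 pairs over 7 comparisons, in 28 exact 2-sided permutation tests whose smallest possible p is 0.0286. The ratio of Rpl7l1 to Rpl7 reached that value in 2 of them. It was -2.58 ± 0.04 in KO ACM, against -2.41 ± 0.01 in WT ACM cells, and -2.41 ± 0.01 in WT ACM, against -2.51 ± 0.07 in WT untreated cells (SD, n = 4 each, exact p = 0.0286). Rpl7l1 itself was called in none of the comparisons with all libraries; without library 81 its S1P interaction was 0.10 with a limma adjusted p of 0.0371. No ratio passed adjustment over the 28 exact tests (lowest adjusted p = 0.319). The Rpl22l1 to Rpl22 ratio was -1.61 ± 0.09 in WT S1P, against -1.37 ± 0.24 in WT untreated cells (exact permutation p = 0.114, n = 4 each).

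Coding length and the tract were set beside the response of the genes. Of the 10 genes with a coding length of at most 100 codons, which include Rpl37, Rpl38, Rpl39, Rpl41, Rps21, Rps27, Rps28 and Rps29, 5 were above 0 in WT S1P against WT untreated, with a median of 0.01. Of the other 69, 6 were above 0, with a median of -0.13. Rpl37a, with 92 codons, is among the short ones and fell most. The Spearman correlation across the 79 genes between coding length and the difference was -0.29 for S1P and -0.20 for ACM in WT cells, a description over genes that share their libraries. In WT S1P against WT untreated, 19 of 47 genes with the tract were called lower (median -0.08), 5 of 12 without it (median -0.08), and 12 of 20 with no start entry (median -0.14). In WT ACM against WT untreated, 17 of 47 with the tract were called lower (median -0.11), 3 of 12 without it (median -0.08), and 6 of 20 with no start entry (median -0.11). These differences between small classes of genes were not tested.

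Other messages of the translation apparatus that carry a TOP tract were examined next, from a list of 23 genes. In WT S1P against WT untreated, 14 fell (60.9%, against 27.2% of all genes tested) and 2 rose (8.7%, against 25.2%), with a median of -0.18. In WT ACM against WT untreated, 10 fell (43.5%, against 9.85% of all genes) and 1 rose (4.35%, against 12.2%), with a median of -0.10. In KO cells 0 passed with either treatment. In KO S1P against WT S1P, 16 were higher (69.6%, against 26.9% of all genes) and 1 lower (4.35%, against 25.4%), with a median of 0.15. Hnrnpa1, an RNA-binding protein of splicing, averaged 81.4 FPKM in WT S1P, against 120.0 in WT untreated cells (-0.56 ± 0.05, adjusted p = 4.03e-09). Eif4b, which helps the helicase Eif4a unwind messages, averaged 66.4 FPKM, against 85.4 (-0.36 ± 0.03, adjusted p = 1.18e-08). Nap1l1, a histone chaperone, fell by 0.44 ± 0.05 and Eif3h, a subunit of an initiation factor, by 0.30 ± 0.04 (adjusted p = 9.08e-08 and 2.76e-06). Rack1, a scaffold on the small subunit, averaged 135 FPKM in both WT S1P and WT ACM, against 147 FPKM in WT untreated cells, and fell by 0.12 ± 0.02 with either (adjusted p = 0.000184 and 0.00119).

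Of 54 factors that assemble ribosomes, 19 rose (35.2%, against 25.2% of all genes) and 8 fell (14.8%, against 27.2%) in WT S1P against WT untreated, with a median of 0.06. Sbds, which readies the large subunit for joining, averaged 28.3 FPKM, against 21.6 in WT untreated cells (0.38 ± 0.06, adjusted p = 9.89e-06). Rpf2, which brings 5S RNA into the large subunit, differed by 0.37 ± 0.06, and Ltv1, an export factor of the small subunit, by 0.30 ± 0.05 (adjusted p = 3.89e-05 and 2.20e-05). Polr1d, a subunit of RNA polymerases I and III, fell by 0.25 ± 0.04 and Npm1, a nucleolar chaperone that is also in the TOP list, by 0.19 ± 0.04 (adjusted p = 3.43e-05 and 0.000155). With ACM 1 rose (1.85%, against 12.2% of all genes) and 11 fell (20.4%, against 9.85%), with a median of -0.04. Wdr12, Npm1, Heatr1 and Polr1c had the smallest adjusted p among them. In KO S1P against WT S1P, 5 were higher (9.26%, against 26.9% of all genes) and 20 lower (37.0%, against 25.4%), with a median of -0.09.

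Among 10 host genes of small nucleolar RNAs, 5 rose and 1 fell in WT S1P against WT untreated, where 25.2% of all genes rose and 27.2% fell. Gas5, itself a TOP transcript, averaged 11.7 FPKM, against 8.83 (0.36 ± 0.10, adjusted p = 0.00278), Snhg6 averaged 15.7, against 12.3 (0.35 ± 0.10, adjusted p = 0.00387), and Snhg5 averaged 4.49, against 6.06 (-0.36 ± 0.09, adjusted p = 0.00118). Of 77 mitochondrial ribosomal protein genes, whose ribosome works inside mitochondria, 20 rose in WT S1P against WT untreated, 26% and thus near the 25.2% of all genes, and 8 fell (10.4%, against 27.2%; median 0.05). In WT ACM 0 rose and 5 fell (6.49%, against 9.85% of all genes; median -0.01). In KO S1P against WT S1P, 7 were higher (9.09%, against 26.9%) and 18 lower (23.4%, against 25.4%).

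**Figure D5:**
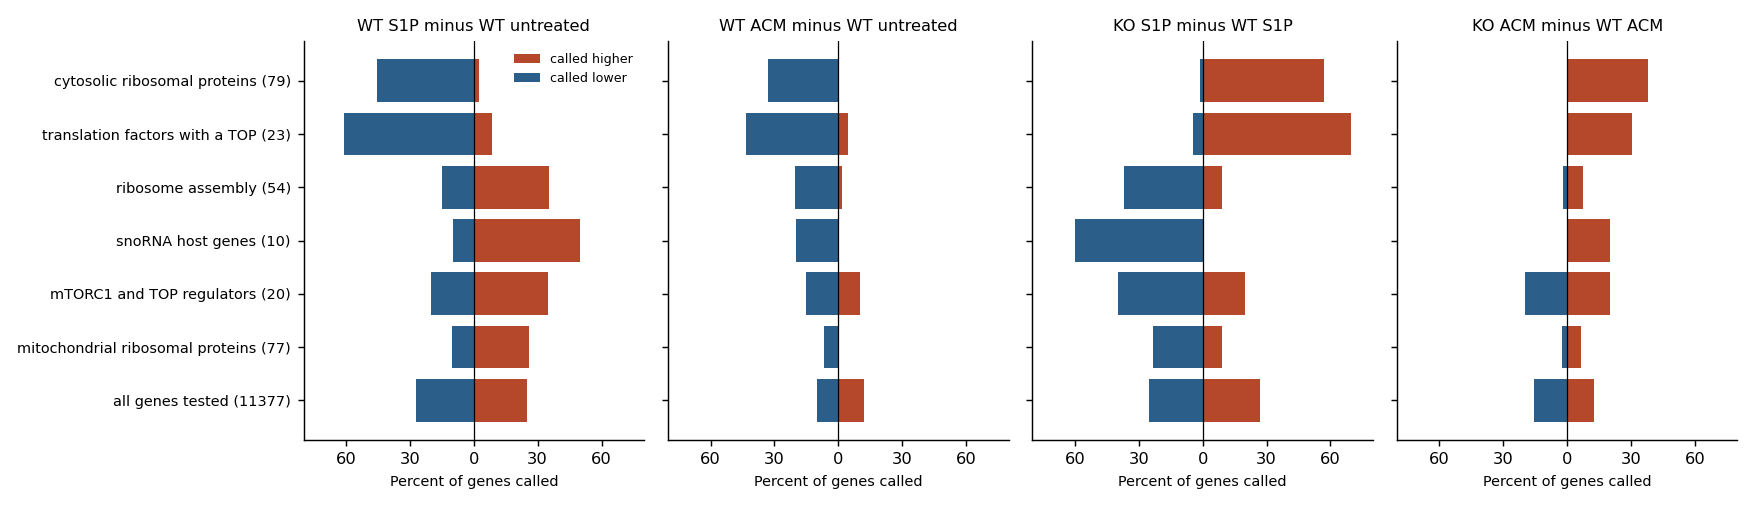
For 4 comparisons, the percent of each gene list called higher (red, to the right) and lower (blue, to the left) at an adjusted p under 0.05, with the number of genes tested in brackets. Cytosolic ribosomal proteins and translation factors with a TOP point left in the 2 WT treatment comparisons and right in the 2 genotype comparisons, and the bottom row gives all genes tested, of which 25.2% were called higher and 27.2% lower with S1P in WT cells. The mitochondrial list has 26% called higher there, near that row.

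Of 20 regulators of mTORC1 and of TOP translation, 7 were higher and 4 lower in WT S1P against WT untreated (35.0% and 20%, against 25.2% and 27.2% of all genes). Sesn1, a brake on mTORC1, averaged 13.2 FPKM, against 24.3 (-0.84 ± 0.07, adjusted p = 1.06e-09), while its relative Sesn2 averaged 15.9, against 11.4 (0.44 ± 0.06, adjusted p = 3.17e-06). Akt1s1, a subunit that restrains mTORC1, averaged 16.6 FPKM, against 11.3 (0.52 ± 0.07, adjusted p = 1.52e-06), and Eif4ebp2, a repressor of cap-dependent initiation, 22.6, against 27.6 (-0.28 ± 0.03, adjusted p = 3.44e-07). With ACM 2 rose and 3 fell (10.0% and 15.0%, against 12.2% and 9.85% of all genes). Of 10 genes of the MYC network 2 rose and 2 fell with S1P, 20% each way and below the shares of all genes, the largest being Mxd3, an antagonist of MYC, at 2.15 FPKM, against 5.83 (-1.14 ± 0.11, adjusted p = 1.25e-08).

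p53 targets were examined because unassembled ribosomal proteins are known to bind Mdm2. Of 12 tested, 5 rose (41.7%, against 25.2% of all genes) and 2 fell (16.7%, against 27.2%) in WT S1P against WT untreated. In WT ACM against WT untreated, 4 rose (33.3%, against 12.2%) and 2 fell (16.7%, against 9.85%). Mdm2, the ubiquitin ligase of p53, averaged 45.8 FPKM in WT S1P, against 30.8 (0.56 ± 0.04, adjusted p = 7.86e-10), and 38.4 in WT ACM (0.31 ± 0.04, adjusted p = 2.75e-05). Bbc3, a promoter of apoptosis, averaged 15.3 FPKM in WT S1P, against 7.84 (0.88 ± 0.09, adjusted p = 2.43e-08). Gtse1, which restrains p53 and is made late in the cell cycle, averaged 7.07 FPKM, against 16.3 (-1.13 ± 0.10, adjusted p = 6.95e-09). Rps27l, a p53 target inside the set, was not called with S1P (0.10 ± 0.06, adjusted p = 0.144). Of 11 genes of ribosome quality control, 2 rose and 2 fell with S1P, 18.2% each way and below the 25.2% and 27.2% of all genes, led by Edf1, a sensor of collided ribosomes (0.27 ± 0.05, adjusted p = 0.000168), and Map3k20, a kinase that such collisions activate (-0.24 ± 0.06, adjusted p = 0.00113).

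Markers of the cells moved beside these differences. The summed level of 9 macrophage genes was 5600 to 5840 FPKM in KO S1P, 5530 to 5860 in KO ACM and 5300 to 7380 in KO untreated libraries. It was 5220 to 7080 FPKM in WT S1P and 7220 to 7880 in WT ACM libraries, against 8500 to 8790 in WT untreated libraries. Lyz2 made up most of this sum. In WT cells it averaged 3280 FPKM with S1P and 4496 with ACM, against 5792 untreated. In KO cells Lyz2 averaged 2907 FPKM with S1P and 2907 with ACM, against 3083 over all KO untreated libraries. It was thus already lower in untreated KO than in untreated WT cells. Other genes of the list moved either way in WT S1P cells. Cd68 averaged 1013 FPKM there, against 833.8 in WT untreated cells, and Adgre1 averaged 145, against 197.2. The sum of 7 granulocyte genes was 20.2 to 23.2 FPKM in KO S1P, against 7.27 to 10.7 in WT S1P libraries. It was 22.6 to 23.2 FPKM in KO ACM, against 5.43 to 7.61 in WT ACM libraries, and 6.9 to 20.7 FPKM in KO untreated, against 6.6 to 9.33 in WT untreated libraries. The part of any of these in the differences of the set was not tested.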

How the data were processed

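Per the labels' protocols, RNA was extracted with Trizol and messenger RNA was captured with oligo(dT). The authors deposited 1 table of FPKM, with 54532 genes and 24 libraries. StringTie, featureCounts, STAR, HISAT2, DESeq, edgeR and STAR-Fusion, with the builds GRCm38 and mm10, stand in the submitters' processing notes. The sources used here do not say what each did, at which version or with which strand setting, and overlapping antisense genes cannot be told apart. Identifiers were matched to GENCODE M21 (GRCm38, 54495 matched), which also gave the coordinates. Start sequences are from RefSeq (GRCm38.p6), with an entry for 59 of 79 genes. The deposited FPKM came in steps of 1 read: for 97.0% of genes above 0 every value was a whole number of reads (tolerance 0.05), which gave the depths. No count test was run.

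The filter kept genes that reached 1 FPKM in 4 or more libraries. Deposited FPKM were put on the log2(FPKM + 1) scale and tested with limma 3.58.1 (R 4.3.3). A single fit held the means of all 6 groups (18 residual degrees of freedom, prior with trend) and gave 11 comparisons. Calls are at 0.05 after Benjamini-Hochberg adjustment across the 11377 genes, and SE are those of limma. The log scale understates the change of low genes. Paralogue ratios were tested with exact permutation tests (scipy 1.17.1). Pseudogenes were matched with blastn 2.17.0. Scripts were tested on simulated data.

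The members and lists were chosen with earlier results of these data known. Named are the 5 highest and 5 lowest genes, up to 6 called rises and 6 called falls in each treatment or genotype comparison, 5 genes of each interaction, the stalk and the paralogues. From each other list up to 4 genes with the smallest adjusted p in a treatment comparison could be named, and the text gives a selection of them. The genes of the comparison of ACM with S1P, and Rpl4, Rpl5, Rpl11, Rpsa and Rps6, were chosen after their values were seen. Alternatives were a pseudocount of 0.1, quantile normalization, median scaling, TPM scaling over all or over protein-coding nuclear genes, a filter at 5 FPKM or none, robust empirical Bayes, a fit of only the groups compared and each library left out. The Gm23935 covariate was added after seeing the data. Some genes of the set are counted but not reported by name here.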

Additional observations from a re-analysis of the deposited data

Results flagged for a closer look

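In 9 of 198 sets of 4 libraries examined, 1 library stood far from the other 3, where chance gives about 1 in 20. Trem2 was at 79.6 FPKM in the library labelled KO untreated 81, where the other KO untreated libraries were at 35.7 to 40.2 FPKM. Rpl37a was at 236.6 FPKM in WT untreated replicate 3, with the others at 209 to 213. Rplp1 was at 1342 FPKM in WT S1P replicate 28, with the others at 1395 to 1405, and Rps27l was at 130.8 FPKM in WT S1P replicate 27, with the others at 124.5 to 125. Rps20 was at 83.23 FPKM in KO S1P replicate 91, with the others at 90.96 to 91.9, and Rpl7l1 was at 33.09 FPKM in KO S1P replicate 93, with the others at 31.4 to 31.5. The log2 ratio of Rps27l to Rps27 was -0.55 in KO ACM replicate 86, that of Rpl22l1 to Rpl22 was -1.73 in KO S1P replicate 93, and that of Rpl7l1 to Rpl7 was -2.47 in WT S1P replicate 25.

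By limma's interaction test 45 of 79 genes were called for S1P, where 41.9% of all genes tested were called and 22.5% were positive. For ACM 32 of 79 were called, where 17.1% of all genes were called and 7.41% were positive. A batch and a group cannot be told apart in these interactions. For S1P the interaction was 0.45 for Rpl36a, 0.53 for Rpl37a, 0.31 for Rps7, 0.24 for Rpl7a and 0.35 for Rpl3 on the log2 scale. For ACM it was 0.32 for Rps7, 0.31 for Rpl10a, 0.29 for Rpl3, 0.33 for Rpl36a and 0.23 for Rps3a1. No called interaction of the set was negative.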

How the results depend on the processing

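No paired analysis was possible because the groups share no replicate numbers. In WT ACM against WT untreated (26 called), 53 were called with TPM scaling, 49 with TPM over protein-coding nuclear genes, 46 with quantile normalization and 17 with the Gm23935 covariate. In KO ACM against WT ACM (30 called), the counts were 18 with no filter, 56 with TPM over protein-coding nuclear genes and 55 with quantile normalization. KO S1P against WT S1P (46 called) gave 9 with TPM scaling, and the S1P interaction (45 called) gave 23. The ACM interaction (32 called) gave 17 with the Gm23935 covariate. WT ACM against WT S1P (9 called) gave 14 with TPM over protein-coding nuclear genes (2 higher and 12 lower) and 19 with quantile normalization (1 higher and 18 lower). KO untreated against WT untreated (1 called) gave 0 with no filter, with TPM scaling, with only the groups compared and with the covariate, 2 with the filter at 5 FPKM and 4 with quantile normalization. TPM scaling shifted the median of all genes by -0.12 in WT ACM against WT untreated and by 0.11 in the ACM interaction. No called value reversed under any alternative run. For the alternatives, the covariate and the fits without a library, the shares of all genes called are not given here. Those counts therefore show how the calls vary and are not set against all genes.

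Leaving out 1 library at a time gave 21 to 34 calls in WT ACM against WT untreated, 31 to 39 in WT S1P against WT untreated, 0 to 0 in both KO treatment comparisons and in KO ACM against KO S1P, and 0 to 5 in KO untreated against WT untreated. It gave 16 to 31 calls in KO ACM against WT ACM, 38 to 49 in KO S1P against WT S1P, 6 to 11 in WT ACM against WT S1P, 23 to 35 in the ACM interaction and 38 to 46 in the S1P interaction. Of the tests of named genes, 52 of those that left out a library and 30 of the others fell short of the threshold, all in the same direction. Of the medians over the set, 13 moved by more than the spread between libraries, none of them when a library was left out. Rps10 rests on 27 to 73 reads a library, so counting error limits it. The cause was not tested.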
